A study of Mus musculus with 2 samples.

Results

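At day 3 after tibial fracture, 139 of 15794 retained barcodes of mouse periosteal cells carried transcripts of cartilage matrix genes at a high level. These chondrocyte-like cells were chosen from UMIs, the molecule counts of droplet sequencing, of 8 genes: Col2a1, Acan, Col9a1, Col9a3, Matn3, Cnmd, Hapln1 and Ucma. A cell entered the group with at least 3 UMIs of these genes in sum and at least 10 per 10000 of its own UMIs. The series held 20252 retained barcodes in all. The same rule found 0 cells among 4458 retained barcodes of the uninjured library.

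The cells came from Prx1Cre;mTmG mice, in which Cre expressed under the limb mesenchyme promoter of Prrx1 switches a cell and its progeny from membrane tdTomato to membrane EGFP. There was 1 library from periosteum of uninjured mice (day 0) and 1 library from periosteum at day 3 after tibial fracture, and both carried both alleles. Age and the number of animals per library are not given in the labels. Per the labels' protocols, cells left periosteal explants and grew in serum medium with bFGF, whereas the design text speaks of cells taken without expansion, and the files do not settle which holds. All live cells were loaded, not EGFP-sorted cells. The labels call the cells Prx1-derived, yet 27.1% of the retained day-3 barcodes passed the EGFP rule used here (at least 3 EGFP UMIs and at least 5 per 10000).

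Chondrocytes build cartilage from a fibrillar network of type II, IX and XI collagens filled with aggrecan, a large proteoglycan whose sulfated chains hold water. Sox9, with Sox5 and Sox6, drives that gene programme, and later hypertrophic chondrocytes switch to type X collagen and mineralize the matrix. In fracture repair, periosteal skeletal progenitors form much of the soft cartilage callus, which bone then replaces.

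Deposited barcodes numbered 16332 at day 3 (227191961 UMIs) and 4573 in the uninjured library (94034112 UMIs). Retained barcodes had at least 300 genes, at least 500 UMIs and at most 10% mitochondrial UMIs. Median depth was 7132 UMIs per retained barcode at day 3 and 19761 in the uninjured library. The libraries shared 3 barcodes, and 0 of the 139 cells were among them. The barcode sequences of the libraries begin differently although the labels name the same kit version for both, and the kit, the depth and the injury cannot be told apart between 2 libraries.

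The chondrocyte-like cells were shallow. They held 505 to 3404 UMIs (median 955) and a median of 617 genes, and 144361 UMIs together. The EGFP cells of the same library with 0 UMIs of the 8 genes, 3745 cells with a median of 31297 UMIs and 123737640 UMIs together, served as the comparison. Because of that gap in depth, the lists and most of the named genes are also compared with the 130 of these EGFP cells that held 500 to 3500 UMIs (median 1086.5, 197867 UMIs), called shallow EGFP cells below. Median mitochondrial shares were 3.87%, 4.50% and 3.58% in the chondrocyte-like, all EGFP and shallow EGFP cells, and median ribosomal shares were 20.4%, 21.7% and 18.4%. Depth moves with the groups, and beyond the comparison with shallow EGFP cells and the thinning given below its part in the results was not tested.

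**Figure D1:**
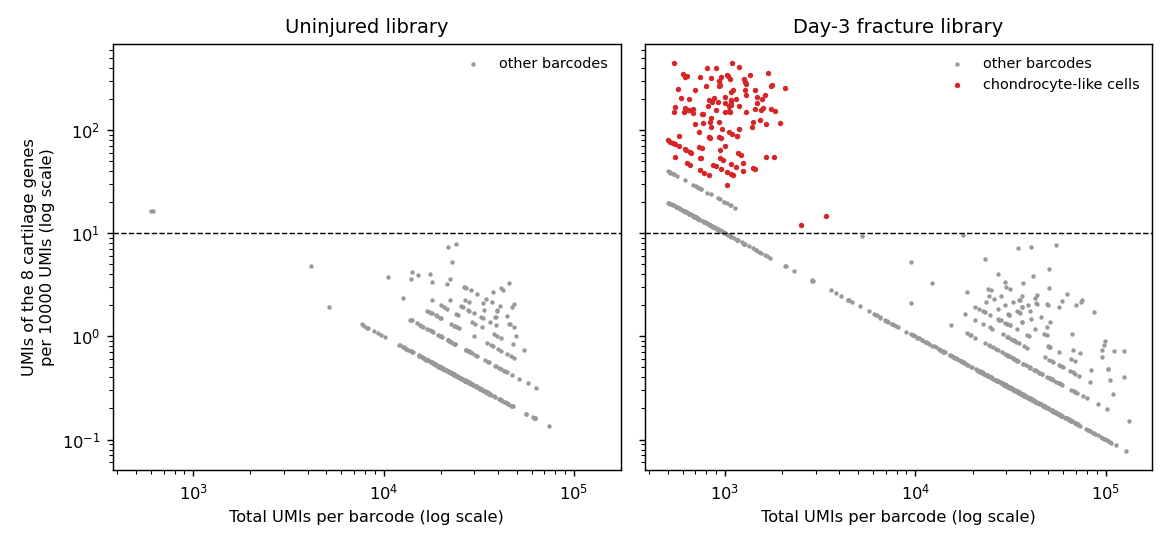
Each point is a retained barcode with at least 1 UMI of the 8 genes, by total UMIs (x, log scale) and by UMIs of the 8 genes per 10000 (y, log scale), with the uninjured library on the left, day 3 on the right and the threshold of 10 per 10000 dashed. The 139 chondrocyte-like cells (red) lie below 3500 UMIs and the other barcodes with 3 or more such UMIs lie at higher depth and below the line.

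Levels of the 8 genes chose the cells and are a description only. UMIs were summed over the cells and are given as CPM, UMIs of a gene in 1000000 UMIs of that sum. Col2a1, the main fibrillar collagen of cartilage (chromosome 15, 97975602 to 98004695, minus strand, GRCm38), was detected in 127 of the 139 cells at 7793 CPM. It was the highest of the 8 genes in 113 cells and gave 49.7% of their UMIs. Acan, which encodes aggrecan (chromosome 7, 79053483 to 79115099, plus strand), followed with 114 cells and 2598 CPM.

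The type IX collagen chains Col9a3 (93 cells, 1441 CPM) and Col9a1 (74 cells, 901 CPM) came next. Hapln1, the link protein that ties aggrecan to hyaluronan, was found in 64 cells at 845 CPM. Cnmd, which encodes chondromodulin, an inhibitor of vessel growth in cartilage, was found in 56 cells at 741 CPM. The matrix adaptor Matn3 (65 cells, 727 CPM) and Ucma, a matrix protein of unmineralized cartilage (47 cells, 623 CPM), closed the order. Detection of several of the genes in 1 cell was the usual pattern: 119 cells had 3 or more of the 8 genes, 8 cells had all of them and 8 cells had 1.

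The 8 genes together reached 3 to 60 UMIs per cell (median 11) and 12 to 442 per 10000 (median 148). Just inside the threshold lay cells at 12 per 10000 (3 of 2500 UMIs), 14.7 (5 of 3404) and 29.3 (3 of 1023). Just outside it lay barcodes at 9.56 per 10000 (17 of 17784 UMIs), 9.48 (5 of 5275) and 7.62 (42 of 55100). A further 24 barcodes passed 10 per 10000 with 2 UMIs and were not counted. The gap between the groups was thus a gap in depth as well as in level, since 129 deeper barcodes had 3 or more UMIs of the 8 genes below 10 per 10000.

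**Figure D2:**
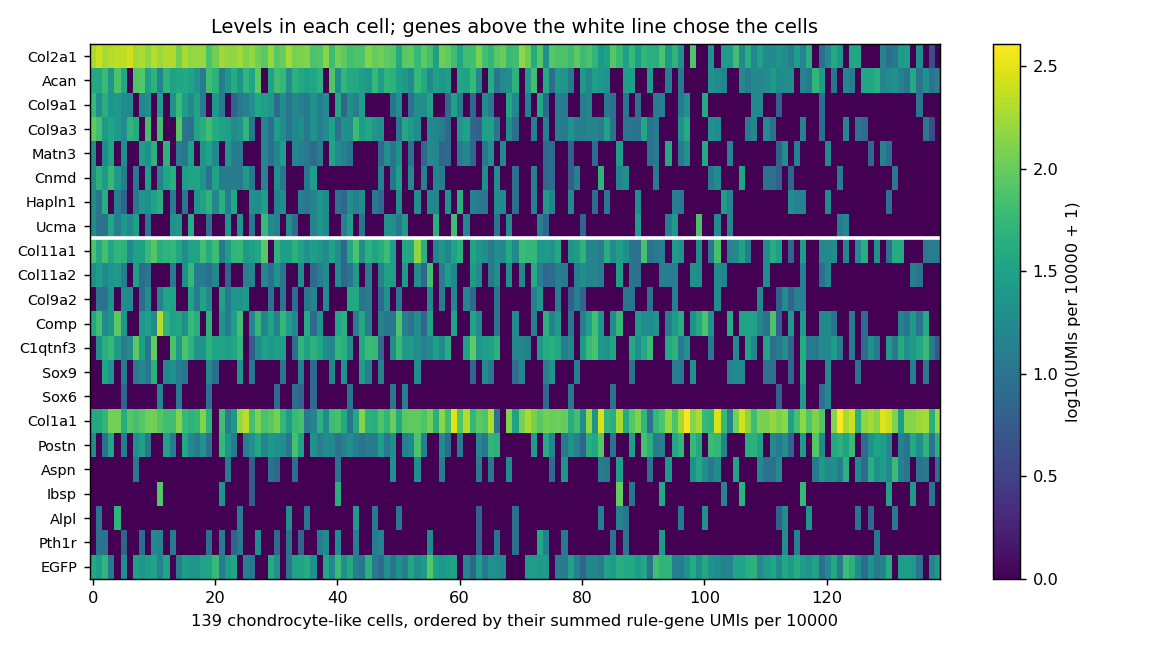
Each column is 1 of the 139 chondrocyte-like cells, ordered by the sum of the 8 genes, and each row a gene, with colour giving log10 of UMIs per 10000 plus 1. Col2a1 spans most columns, while Col1a1, EGFP, Col11a1 and C1qtnf3 below the white line, which the rule did not use, are detected along the whole width.

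By depth, 76 of 1322 day-3 barcodes with 500 to 1000 UMIs were chondrocyte-like, as were 60 of 1320 with 1000 to 2000 UMIs. The count was 3 of 1757 at 2000 to 3500 UMIs and 0 of 11395 above 3500 UMIs. Over 500 to 3500 UMIs the share was 3.16% of 4401 barcodes (exact Clopper-Pearson 95% interval 2.66% to 3.72%, counting error only, as for all intervals below). The uninjured library had 144 barcodes in that range and 0 chondrocyte-like cells, which allows a share of up to 2.08% by the limit of 3 counts used here for a count of 0 (2.53% as the upper Clopper-Pearson bound). From the shallowest bin up these were 27, 52 and 65 barcodes, with upper Clopper-Pearson bounds of 12.8%, 6.85% and 5.52%. The day-3 shares in the same bins were 5.75%, 4.55% and 0.171%, each below its uninjured bound.

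Over all retained uninjured barcodes, 0 of 4458 allows up to 0.0673% (0.0827% by Clopper-Pearson), against 0.880% at day 3 (0.740% to 1.04%). In the uninjured library, 85 barcodes had 3 or more UMIs of the 8 genes, and the highest of them reached 7.90 per 10000. After thinning every barcode at random to 500 UMIs, 118 of 15794 day-3 barcodes (0.747%) and 0 of 4458 uninjured barcodes still had 3 or more UMIs of the 8 genes. A count of 3 in 500 UMIs asks for a higher level than the 10 per 10000 of the rule. With 7.90 per 10000 as that highest level, the uninjured 0 was close to fixed in advance. The day-3 count reuses the values that chose the cells, so the thinned counts are descriptions only. Leaving each gene out of the rule in turn gave 118 to 138 cells at day 3. The cells had a median of 11 UMIs of the 8 genes against a threshold of 3, so a small change was likely. With 1 library for each condition there is no replicate check of the difference between libraries, and the shallow range in which the cells were found was thinly filled in the uninjured library.

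The lineage reporter was not part of the rule. EGFP stood at 2224 CPM in the chondrocyte-like cells, with UMIs in 124 of 139 cells (89.2%, 82.8% to 93.8%). It stood at 2876 CPM in the shallow EGFP cells, which were chosen for it, and at 71.0 CPM in 2078 shallow barcodes rich in macrophage and neutrophil transcripts. That last group was taken as a rough guide to RNA that is free in the droplets, which was not measured directly. It is deeper, with a median of 2220 UMIs against 955 in the chondrocyte-like cells. Other sources of its EGFP were not tested. After thinning to 500 UMIs, 67.6% of the chondrocyte-like cells and 3.13% of the shallow immune barcodes had an EGFP UMI.

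The EGFP rule of 3 UMIs and 5 per 10000 was passed by 56 chondrocyte-like cells (40.3%, 32.1% to 48.9%). The 83 cells that did not pass it had a median of 832 UMIs, against 1183 in those that did, and EGFP at 1319 CPM. Col2a1 was 8117 CPM in the passing cells and 7474 CPM in the others. tdTomato had 0 UMIs in all 139 cells, which allows up to 20.8 CPM. In sum, the reporter was higher in the chondrocyte-like cells than in the shallow immune barcodes or the other shallow barcodes. The cells without 3 EGFP UMIs were the shallower ones.

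Xist, expressed from the inactive X chromosome, had UMIs in 46 chondrocyte-like cells and in 47 shallow EGFP cells. UMIs of 4 Y-linked genes (Ddx3y, Eif2s3y, Uty, Kdm5d) were 0 in the chondrocyte-like cells, a level of up to 20.8 CPM, against 28.2 CPM in all EGFP comparison cells and 30.3 CPM (6 UMIs) in the shallow ones. Whether the cells differ in sex from the comparison cells was not tested.

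Genes outside the rule were compared where the higher group reached 50 CPM. Of 3640 such genes, 666 (18.3%) were at least 2-fold higher in the chondrocyte-like cells than in the EGFP comparison cells and 706 (19.4%) at least 2-fold lower. Against the shallow EGFP cells, 547 of 3873 genes (14.1%) were higher and 923 (23.8%) lower. The comparisons share the chondrocyte-like cells and the shallow cells are among the EGFP cells. Of the 666 higher genes, 406 were also higher against the shallow EGFP cells, and of the 706 lower genes, 474 were also lower. At 50 CPM a gene has about 7.22 UMIs in the chondrocyte-like cells, so calls near that level rest on few UMIs. A gene that reached the minimum through 1 group only is likely to be called, so the counts by list below are descriptions. At a minimum of 200 CPM, 209 of 937 genes (22.3%) were higher and 146 (15.6%) lower, and against the shallow EGFP cells 147 of 932 (15.8%) and 127 (13.6%). No p-value is given, because cells of 1 library are not replicates. The median log2 ratio over all tested genes was −0.07 against the EGFP comparison cells and −0.13 against the shallow ones.

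The 23 matrix genes of cartilage that the rule did not use summed to 8971 CPM in the chondrocyte-like cells, 89.6 CPM in the EGFP comparison cells and 692 CPM in the shallow ones. Of these genes 12 reached 50 CPM, nearly all of them in the chondrocyte-like cells only, so that their direction follows from that minimum (12 higher, median log2 ratio 10.66). Against the shallow EGFP cells 12 of 13 were higher and 1 lower (median log2 3.34), with the same limit. The genes Matn1, Cytl1, Mia, Hapln3, Chadl, Clec3a and Otos had 0 UMIs in the chondrocyte-like cells. Selection on 8 genes of the same tissue makes a high level of these genes likely, so the counts describe the cells and are no independent evidence of their kind.

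Type XI collagen, which nucleates the thin fibrils of cartilage, was carried by both of its own chains. Col11a1 had 377 UMIs in 116 cells, a level of 2612 CPM, against 23.7 CPM in the EGFP comparison cells and 142 CPM in the shallow ones. That is an 18.5-fold difference from the shallow cells (12.6 to 28.2). Col11a2 (chromosome 17, 34039437 to 34066685, plus strand) had 125 UMIs in 75 cells, 866 CPM, and 0 UMIs in the shallow EGFP cells, so its level was at least 57.1-fold higher. Col9a2, the remaining type IX chain, stood at 589 CPM in 55 cells and at 15.2 CPM (3 UMIs) in the shallow EGFP cells, a ratio of 38.8 (12.8 to 192).

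Comp, a pentameric protein that binds collagen fibrils in cartilage and tendon, stood at 1870 CPM in 93 cells, 21.8-fold above the shallow EGFP cells (13.3 to 37.9). Per cell it ranged from 0 to 204 per 10000, with a median of 13.9. Col27a1, a fibrillar collagen of cartilage, was 443 CPM against 50.5 CPM in the shallow cells. Fmod, a small leucine-rich proteoglycan that regulates collagen fibrils, was 838 against 162 CPM, and the matrix adaptor Matn4 was 256 against 25.3 CPM. Scrg1, a gene known from cartilage differentiation, had 48 UMIs in 38 cells and 0 in the shallow EGFP cells, at least 21.9-fold higher. Cilp, a protein of deeper articular cartilage, went the other way, at 20.8 CPM against 101 CPM in the shallow cells (a ratio of 0.206, 0.0391 to 0.693), and above the 0.412 CPM of all EGFP comparison cells.

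After thinning to 500 UMIs, Col11a1 was detected in 66.9% of the chondrocyte-like cells, 10.0% of the shallow EGFP cells and 0.192% of the shallow immune barcodes (83.5% of the chondrocyte-like cells unthinned). Comp was detected in 51.8%, 6.92% and 0.0481% of the same groups (66.9% unthinned). Of the chondrocyte markers outside the rule (Col9a2, Col11a1, Col11a2, Matn1, Matn4, Sox9, Sox5 and Sox6), 132 of the 139 cells had at least 1 and 68 had at least 3. In the 130 shallow EGFP cells these counts were 36 and 0. Of these markers, Matn1 had 0 UMIs in the 139 cells. The cells were chosen for related cartilage genes and the shallow EGFP cells for having none of those. The counts are thus descriptions and no independent evidence for the label of chondrocyte-like cells.

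**Figure D3:**
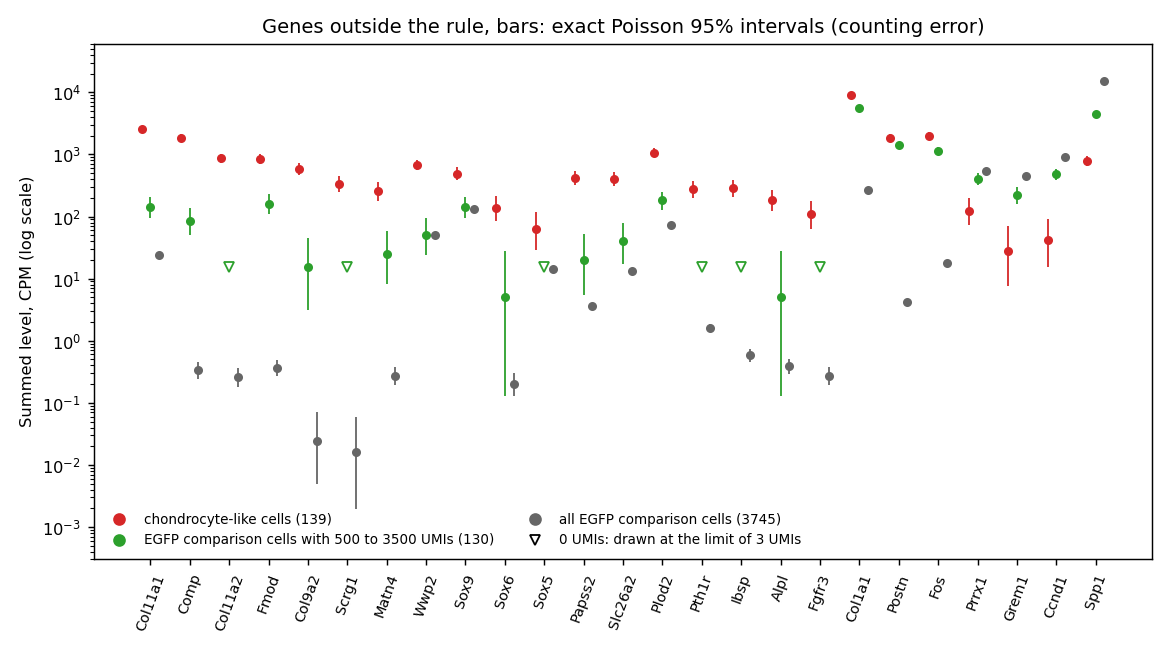
Summed levels in CPM (log scale) of 25 genes outside the rule in the 139 chondrocyte-like cells (red), the 130 EGFP comparison cells with 500 to 3500 UMIs (green) and all 3745 EGFP comparison cells (grey), with exact Poisson 95% intervals. Col11a1, Comp, Col11a2 and Sox9 are highest in the chondrocyte-like cells, whereas Col1a1, Postn and Fos lie within 2-fold of the green points and far above the grey ones, and Prrx1, Grem1, Ccnd1 and Spp1 are lowest in red.

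The transcription factors of cartilage were partly detected at this depth. Of 17 listed factors and co-factors, 9 reached 50 CPM, 7 of the 9 were at least 2-fold higher than in the EGFP comparison cells and 0 were lower. Against the shallow EGFP cells 6 of 9 were higher and 0 lower. Sox9, the central factor of chondrocyte identity (chromosome 11, 112782224 to 112787760, plus strand), had 71 UMIs in 47 cells. Its level was 492 CPM against 131 CPM in the EGFP comparison cells, a 3.75-fold difference (2.92 to 4.73), and 142 CPM in the shallow ones. Sox6 stood at 139 CPM in 18 cells against 0.202 CPM in the EGFP comparison cells, and had 1 UMI in the shallow EGFP cells, a ratio of 27.4 (4.38 to 1136).

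Sox5 had 9 UMIs in 9 cells, 62.3 CPM, against 14.3 CPM in the EGFP comparison cells and 0 UMIs in the shallow ones. Wwp2, a ubiquitin ligase that carries the Sox9-regulated microRNA miR-140 in an intron, was detected in 65 cells at 679 CPM, 13.4-fold above the shallow EGFP cells (7.0 to 28.9). Mef2c, a factor of hypertrophic maturation and of other lineages, was 298 CPM against 65.7 CPM in the shallow cells. Sox9 and Col2a1 were found together in 45 of the 47 cells with Sox9, while Col2a1, a rule gene, was in 127 of all 139 cells. Sox9 and Sox6 were found together in 8. Few UMIs per cell limit this count, so a cell without a Sox9 UMI is not shown to lack the gene.

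Sox9 was also found in cells without UMIs of the 8 genes. In the day-3 EGFP comparison cells, 835 cells had at least 3 Sox9 UMIs and at least 2 per 10000 of Sox9 with 0 UMIs of the 8 cartilage genes. Their summed Sox9 level was 323 CPM and their median depth 30300 UMIs. They were chosen to lack the 8 genes and are deeper than the chondrocyte-like cells, so the contrasts with them are descriptions. Col11a1 was 20.0 CPM there against 2612 CPM in the chondrocyte-like cells, and Comp 0.361 against 1870 CPM. Against these Sox9-rich cells 674 of 3668 genes (18.4%) were at least 2-fold higher in the chondrocyte-like cells and 737 (20.1%) lower. Of the chondrocyte-like cells, 6 had 3 or more Sox9 UMIs.

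Enzymes and transporters that build the sulfated chains of aggrecan were higher in part. Of 22 listed genes, 13 reached 50 CPM, 8 of the 13 were at least 2-fold higher than in the EGFP comparison cells and 0 were lower (median log2 1.70). Against the shallow EGFP cells 9 of 14 were higher and 0 lower (median log2 1.22). Papss2, which makes the sulfate donor and is mutated in a skeletal dysplasia, was 416 CPM in 50 cells, against 20.2 CPM in the shallow EGFP cells (20.6-fold, 7.63 to 77.9). Slc26a2, the sulfate transporter of chondrocytes, was 402 CPM against 40.4 CPM (9.94-fold, 4.72 to 24.1). Xylt1, which starts the sugar chain on the core protein, was 187 against 20.2 CPM. Ugdh, which supplies a sugar building block for hyaluronan and chondroitin, was 256 CPM against 258 CPM in the shallow cells and 270 CPM in all EGFP comparison cells.

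Of the collagen folding and secretion genes, 18 of 25 were at least 2-fold above the EGFP comparison cells and 0 below (median log2 1.40). Against the shallow EGFP cells the count was 13 of 26 higher and 1 lower (median log2 0.96). Plod2, the lysyl hydroxylase of collagen telopeptides, was 1067 CPM in 86 cells against 182 CPM in the shallow EGFP cells (5.86-fold, 4.06 to 8.68). P3h1, a prolyl 3-hydroxylase, was 249 against 25.3 CPM, and its partner Ppib was 1427 against 404 CPM. Serpinh1, the collagen chaperone Hsp47, was 2154 CPM in 126 cells against 991 CPM in the shallow cells. The lower gene was Sec24d, a coat protein of the vesicles that export collagen, at 27.7 CPM (4 UMIs) against 101 CPM.

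Genes of hypertrophic cartilage split. Of 12 listed genes, 7 reached 50 CPM, and 4 of the 7 were at least 2-fold higher and 2 lower against both comparison groups. Col10a1, the collagen that defines hypertrophic chondrocytes, had 2 UMIs in 2 cells, and Ihh, the hedgehog ligand of prehypertrophic cells, had 2 UMIs in 1 cell. Mmp13, the collagenase of terminal hypertrophy, had 3 UMIs in 2 cells. At 144361 UMIs in all, such counts are close to the limit of 3 UMIs, or 20.8 CPM.

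Pth1r, the receptor for parathyroid hormone-related protein, was detected in 34 cells at 277 CPM, with 0 UMIs in the shallow EGFP cells (at least 18.3-fold higher). Ibsp, a mineral-binding bone sialoprotein, had 42 UMIs in 13 cells, 291 CPM, and 0 UMIs in the shallow EGFP cells (at least 19.2-fold higher). Alpl, the phosphatase of mineralizing tissue, had 27 UMIs in 21 cells, 187 CPM, against 1 UMI in the shallow cells (a ratio of 37.0, 6.10 to 1515). Panx3, a channel protein of prehypertrophic chondrocytes and osteoblasts, had 11 UMIs in 8 cells and 0 UMIs in the shallow EGFP cells (at least 5.03-fold higher).

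These mineralization-related genes were rarely detected together, at too few UMIs per cell to tell whether they sat in different cells. Of the 13 cells with Ibsp, 12 also had Col2a1, a rule gene that 127 of all 139 cells had. Of the same 13 cells, 1 had Alpl and 1 had Panx3. The 10 cells richest in Ibsp held 92.9% of its UMIs, with up to 95.9 per 10000 in 1 cell. In all, 39 cells had a UMI of Ibsp, Alpl or Panx3. The osteoblast genes Bglap, Bglap2, Dmp1, Phex and Mepe had 0 UMIs, and the factor Sp7 had 6 UMIs in 6 cells.

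Spp1, which encodes the secreted phosphoprotein osteopontin, and Vegfa, the vessel growth factor, were the lower genes. Spp1 was 783 CPM in the chondrocyte-like cells, 15406 CPM in the EGFP comparison cells and 4397 CPM in the shallow ones (a ratio of 0.178 to the latter, 0.145 to 0.217). Vegfa was 20.8 CPM (3 UMIs), 97.1 CPM and 60.6 CPM in the same order. Spp1 is also abundant in the immune barcodes, 74.1% of which had a UMI after thinning to 500 UMIs, compared with 31.7% of the chondrocyte-like cells (48.9% unthinned). In the shallow EGFP cells the thinned share was 42.3%, so the chondrocyte-like cells had the lowest of these shares.

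Receptors and regulators known from the growth plate were seen at low levels. Fgfr3, a brake on chondrocyte proliferation, had 16 UMIs in 13 cells, 111 CPM, against 0.275 CPM in the EGFP comparison cells and 0 UMIs in the shallow ones. The decoy receptor Fgfrl1 was 229 CPM against 10.1 CPM (2 UMIs) in the shallow cells, a ratio of 22.6 (5.78 to 194). Frzb, a WNT inhibitor of cartilage, was 83.1 CPM in 11 cells against 5.05 CPM (1 UMI), a ratio of 16.4 (2.43 to 703). Gdf5, the growth factor of forming joints, had 4 UMIs. Pthlh, the ligand of Pth1r, had 0 UMIs, and Prg4, the lubricin gene of the joint surface, had 5.

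Type I collagen was abundant in the same cells. Col1a1, the fibrillar collagen of bone and fibrous tissue, had UMIs in 136 of 139 cells at 9213 CPM, above Col2a1 in sum. It stood at 269 CPM in the EGFP comparison cells and at 5569 CPM in the shallow ones, ratios of 34.3 (32.4 to 36.2) and 1.65 (1.53 to 1.79). Col2a1 and Col1a1 were found together in 124 cells. After thinning, 92.8% of the chondrocyte-like cells, 62.3% of the shallow EGFP cells and 1.15% of the shallow immune barcodes had a Col1a1 UMI.

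The fibroblast matrix list showed how much the choice of comparison matters. Of 16 genes at 50 CPM or more, 13 were at least 2-fold higher and 1 lower against all EGFP comparison cells (median log2 3.17), but 5 were higher and 2 lower against the shallow ones (median log2 0.22). Postn, a matrix protein of the periosteum, was 1856 CPM against 4.16 CPM in the EGFP comparison cells and 1435 CPM in the shallow ones. Col3a1 was 4392 CPM against 309 and 4382 CPM. Members that stayed higher against the shallow cells were Lum (991 against 283 CPM), Col6a2 (1060 against 334 CPM), Col12a1 (748 against 263 CPM), Col6a1 (1365 against 546 CPM) and Fn1 (3380 against 1557 CPM). The lower genes were Fbln2 (215 against 495 CPM) and Mfap5 (90.1 against 359 CPM). Shallow EGFP cells and deep EGFP cells thus differed from each other in these genes, and levels against the 3745 cells carry that difference.

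The tendon list behaved likewise. Against all EGFP comparison cells 4 of 4 tested genes were higher, and against the shallow ones 1 of 4, which was Fmod. Thbs4 was 152 CPM against 126 CPM in the shallow cells, and Tnmd and Scx, which mark tendon cells, had 7 and 6 UMIs.

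**Figure D4:**
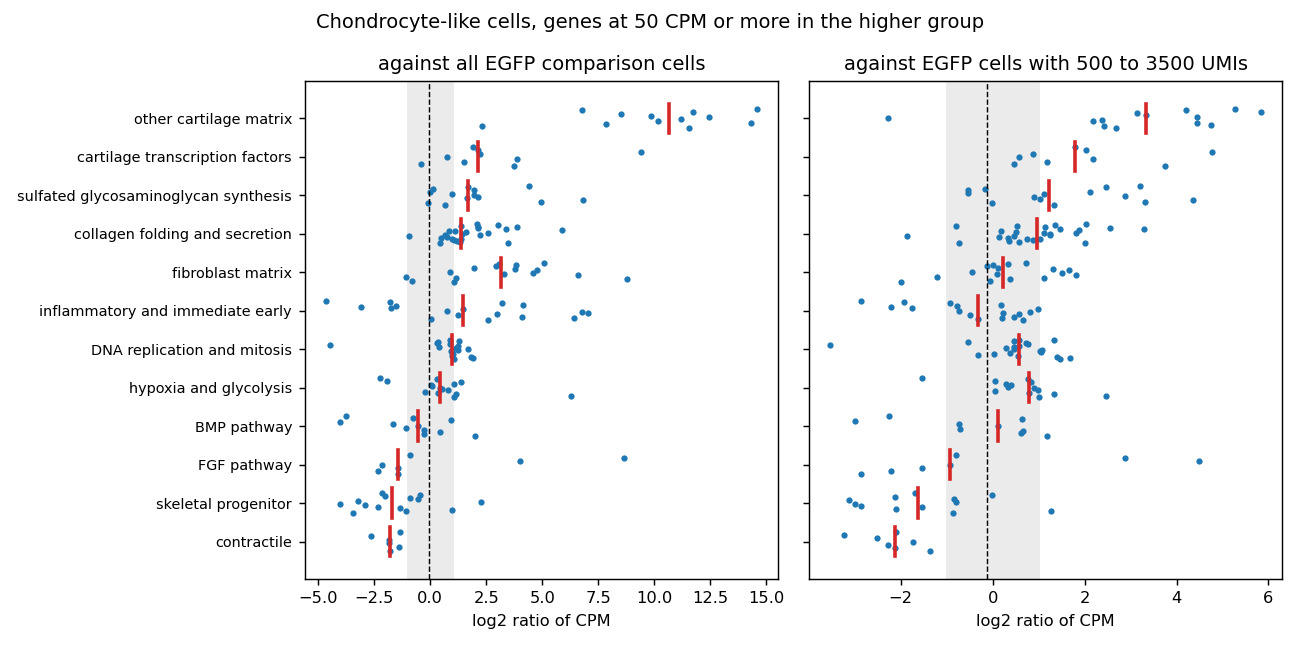
Log2 ratios of CPM in the chondrocyte-like cells over all EGFP comparison cells (left) and over those with 500 to 3500 UMIs (right) for each tested gene (points) of 12 lists, with the list median in red, the median of all genes dashed and ratios below 2-fold shaded. A gene at 0 UMIs in 1 group is drawn at its limit of 3 UMIs. The cartilage lists are to the right in both panels and the progenitor and contractile lists to the left, while the fibroblast matrix and immediate early lists are to the right in the left panel only, with medians of 0.22 and −0.32 in the right panel.

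Skeletal progenitor genes were lower. Of 14 tested genes, 9 were at least 2-fold lower and 1 higher than in the EGFP comparison cells (median log2 −1.69), and against the shallow cells 7 of 12 were lower and 1 higher (median log2 −1.62). Prrx1, the limb mesenchyme factor whose promoter drives the Cre, was 125 CPM in 13 cells against 546 CPM in the EGFP comparison cells and 404 CPM in the shallow ones, a ratio of 0.308 to the latter (0.174 to 0.519). Grem1, a BMP antagonist, was 27.7 CPM (4 UMIs) against 450 and 222 CPM. Cd34, Thy1 and Twist2 had 1 UMI each. Cxcl12 was higher than in all EGFP comparison cells (55.4 against 11.5 CPM) and below the shallow cells (96.0 CPM), and the gene higher against the shallow cells was Ctsk (145 against 60.6 CPM).

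Genes of the contractile apparatus were lower too, 6 of 6 against the EGFP comparison cells and 7 of 7 against the shallow ones, with median log2 ratios of −1.80 and −2.13. Tagln, an actin-binding protein of smooth muscle and myofibroblasts, was 125 CPM against 782 and 1167 CPM. Acta2, smooth muscle actin, was 298 CPM against 765 and 1284 CPM. After thinning, Acta2 was detected in 10.1% of the chondrocyte-like cells (17.3% unthinned), 33.8% of the shallow EGFP cells and 3.32% of the shallow immune barcodes.

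Beyond the lists, the 15 highest ratios to the EGFP comparison cells belonged to Col9a2, Scrg1, Panx3, Rtl3, C1qtnf3, Comp, Chl1, Pcp4, Col11a2, Susd5, Fmod, Fam180a, Zfp385b, Arsi and Fndc1. C1qtnf3, a secreted protein known from cartilage, had 354 UMIs in 110 cells. Its level was 2452 CPM against 0.420 CPM in the EGFP comparison cells and 207 CPM in the shallow ones, where it was 11.8-fold higher (8.55 to 16.8). Rtl3 was 166 CPM in 19 cells with 1 UMI in the shallow EGFP cells, a ratio of 32.9 (5.36 to 1353). The other genes of this group outside the cartilage lists had 8 to 22 UMIs. The gene listed as 3110079O15Rik, left out of the ranking for its symbol and chosen after its value was seen, had 75 UMIs in 49 cells, 520 CPM, and 0 UMIs in the shallow EGFP cells.

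The 15 lowest ratios were all of genes with 0 UMIs in the chondrocyte-like cells, since a ratio of 0 ranks first, and each fold is a lower bound set by 3 UMIs. They were Nqo1, Hmga1, Slco2a1, Thbd, Nav2, Mcpt8, Nr2f2, Fosl1, Epb41l1, Mical2, Ier5l, Cck, Parvb, Limd2 and Ccbe1. Nqo1, an oxidoreductase, was 193 CPM in the EGFP comparison cells, at least 9.28-fold above the chondrocyte-like cells, and 85.9 CPM in the shallow ones (at least 4.13-fold). Hmga1, a chromatin protein of growing cells, was at least 8.54-fold lower (5.11-fold against the shallow cells), and Ccbe1, the last of the 15, at least 3.50-fold lower (2.68-fold). Not all 15 were shown to be 2-fold lower against the shallow cells. Cck had 0 UMIs there too, and the bounds were 1.22-fold for Slco2a1 and 1.95-fold for Epb41l1 and Mical2. The remaining bounds were 2.19-fold or more. Mcpt8 is known as a protease of basophils. Some genes with UMIs had larger measured differences than these bounds. Cdkn2a, a cell cycle inhibitor, had 1 UMI (6.93 CPM) against 224 CPM in the EGFP comparison cells and 116 CPM in the shallow ones, ratios of 0.0309 (0.000781 to 0.172) and 0.0596 (0.00145 to 0.367). Il11, a cytokine gene, also had 1 UMI, against 173 and 50.5 CPM. In all, 34 of the 706 lower genes had 0 UMIs.

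Signalling lists were thinly measured. Over all tested genes 18.3% were higher and 19.4% lower against all EGFP comparison cells. Against the shallow ones these shares were 14.1% and 23.8%, and the BMP counts against the shallow cells below are near them. No hedgehog gene reached 50 CPM, and Gli1 had 0 UMIs. Of 11 tested BMP genes 1 was higher and 4 lower than in the EGFP comparison cells, and of 9 against the shallow ones 1 was higher (Bambi, 69.3 against 30.3 CPM) and 2 lower. Of 7 FGF genes 2 were higher (Fgfr3 and Fgfrl1) and 4 lower, and against the shallow cells 2 higher and 3 lower. Dusp6, a feedback target of FGF signalling, was 20.8 CPM (3 UMIs) against 57.1 and 96.0 CPM. Of 3 Notch genes 0 were higher and 2 lower against all EGFP cells, and 0 and 3 against the shallow ones. Of 5 WNT genes 3 were higher and 2 lower, and of 3 against the shallow cells 1 was higher (Frzb) and 0 lower. Sfrp1, a WNT antagonist, was 236 CPM against 7.08 CPM in all EGFP cells and 374 CPM in the shallow ones, so its direction depends on the comparison.

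Replication and mitosis genes were present at levels like those of the comparison cells or above. Of 19 tested genes 9 were at least 2-fold higher and 1 lower than in the EGFP comparison cells (median log2 0.98), and 7 of 21 higher and 1 lower against the shallow ones (median log2 0.57). Mki67, a proliferation marker, was 180 CPM in 18 cells against 75.5 CPM and 121 CPM. Hmgb2, a chromatin protein of dividing cells, was 734 against 195 and 227 CPM. Ccnd1, cyclin D1, was the lower gene, with 6 UMIs and 41.6 CPM against 914 and 480 CPM, a ratio of 0.0866 to the shallow cells (0.0310 to 0.195). Of the 18 cells with Mki67, 16 had Col2a1, which the rule used and which 127 of all 139 cells had.

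Immediate early and inflammatory genes were 10 of 17 higher and 5 lower against all EGFP comparison cells, and 0 of 17 higher and 4 lower against the shallow ones. Fos was 2009 CPM, 18.1 CPM and 1147 CPM in the chondrocyte-like, all EGFP and shallow EGFP cells. Atf3 was 229, 2.65 and 197 CPM. Chemokines were among the lower genes, with Ccl2 at 62.3 CPM against 537 and 288 CPM and Ccl7 at 104 against 349 and 349 CPM. Fos and Atf3 were thus high in the shallow EGFP cells as well as in the chondrocyte-like cells.

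Glycolysis and hypoxia genes had 5 of 15 members higher and 2 lower against all EGFP comparison cells, and 2 of 14 higher and 1 lower against the shallow ones. Of all genes tested against the shallow cells 14.1% were higher, so 2 of 14 is near that share. Car12, a carbonic anhydrase, was 55.4 CPM (8 UMIs) against 10.1 CPM in the shallow cells (a ratio of 5.48, 1.09 to 53.0). Gapdh was 1891 against 1425 CPM. Among matrix-degrading enzymes and their inhibitors, 3 of 9 were higher and 3 lower against all EGFP cells, and 1 of 10 higher and 3 lower against the shallow ones (median log2 −0.20 and −0.45). Timp3, an inhibitor of matrix proteases, was 69.3 CPM against 355 CPM there and 116 CPM in the shallow cells.

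The chondrocyte-like cells were also described by the number of rule genes detected. They were set in 3 groups by how many of the 8 genes they had: 43 cells with 1 to 3 genes, 46 with 4 to 5 and 50 with 6 to 8, with median depths of 822, 924.5 and 1076 UMIs. The rule genes themselves rank these groups and are not a result, and depth moves with the number detected. Levels of other genes over the groups are therefore descriptions. Col11a1, which the rule did not use, was 1591, 2696 and 3247 CPM in this order. Comp was 945, 1644 and 2683 CPM, and C1qtnf3 was 1616, 2148 and 3264 CPM. Some neighbouring groups overlap in their 95% Poisson intervals for each of these 3 genes. Sox9 was 298 CPM (95% Poisson interval 154 to 521), 416 CPM (251 to 650) and 684 CPM (488 to 931), so even its first and last groups overlap.

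Type I collagen ran the other way. Col1a1 was 12903 CPM (11816 to 14062), 9578 CPM (8701 to 10519) and 6392 CPM (5761 to 7074). Its intervals do not overlap, but they cover counting error only and not the spread between cells. Aspn, a small proteoglycan of fibrous matrix and of the periosteum, was 1044, 592 and 171 CPM. Postn was 2113, 1819 and 1709 CPM, with overlapping intervals. EGFP was 2362, 2060 and 2256 CPM, so the reporter did not follow the cartilage genes. Alpl was 199, 197 and 171 CPM on 8, 9 and 10 UMIs, too few to tell whether it did. CPM are shares of a total, in which Col2a1 itself took 3182, 6816 and 11724 CPM. The part of such shares in the lower Col1a1 level was not tested.

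**Figure D5:**
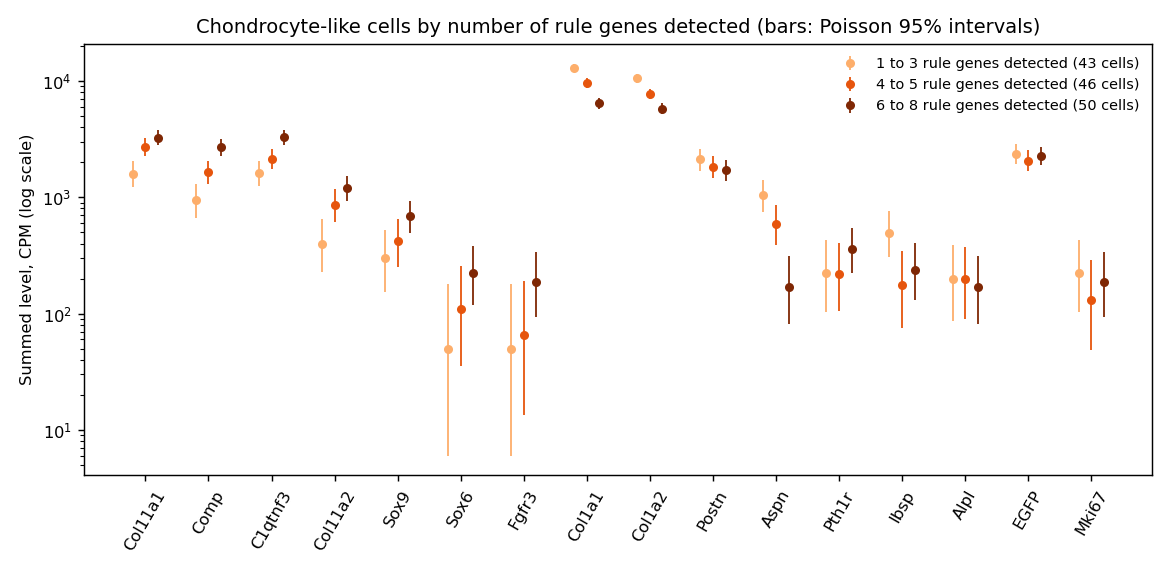
Summed levels in CPM (log scale) of 16 genes outside the rule in chondrocyte-like cells with 1 to 3, 4 to 5 and 6 to 8 of the 8 genes detected, with exact Poisson 95% intervals. Col11a1, Comp, C1qtnf3 and Sox9 increase and Col1a1 and Aspn decrease from the first to the last group, while EGFP, Alpl and Postn overlap.

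In the 12 cells without a Col2a1 UMI the Col1a1 level was 16657 CPM (14423 to 19139), against 8541 CPM in the 127 cells with Col2a1. Aspn was 1674 against 446 CPM in the same groups. Prrx1 was 419 CPM (5 UMIs, 136 to 977) against 98.2 CPM (52.3 to 168). Comp was 1088 CPM (579 to 1861) against 1941 CPM in the cells with Col2a1.

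Markers of other cell types were given by list. Of 12 macrophage markers 10 were detected, with a summed level of 637 CPM, against 838 CPM in the EGFP comparison cells, 1946 CPM in the shallow ones and 17080 CPM in the shallow immune barcodes. Ptprc (CD45) and Cd68 had 0 UMIs. Per cell the list ranged from 0 to 126 per 10000 with a median of 0, and 39 cells had a UMI of it. A single cell held 27 of the 51 Lyz2 UMIs, and that cell, at 14.7 per 10000 of the 8 genes, was also the second closest to the threshold.

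Of 11 neutrophil markers 4 were detected, at 277 CPM in sum against 498 CPM in the EGFP comparison cells, 3199 CPM in the shallow ones and 59247 CPM in the shallow immune barcodes, with Csf3r, Retnlg, Ly6g and Cxcr2 at 0. The list reached 21.2 per 10000 in 1 chondrocyte-like cell and 1787 per 10000 in 1 shallow EGFP cell, so immune transcripts move with the shallow contrast, and their part in it was not tested. Together 43 cells had 10 or more per 10000 of macrophage and neutrophil markers. Their Col2a1 was 7801 CPM and their Col11a1 2755 CPM, against 7790 and 2550 CPM in the other 96 cells, so the cartilage levels were as high without the 43 cells. All 8 lymphoid, 6 erythroid and 9 muscle markers were at 0.

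Of 8 endothelial markers only Egfl7 was detected (3 UMIs), with Pecam1 and Cdh5 at 0. Among Schwann cell markers S100b was detected, 25 UMIs and 173 CPM against 5.42 CPM in the EGFP comparison cells and 1 UMI in the shallow ones (a ratio of 34.3 to the latter, 5.61 to 1407), with Sox10 at 0, and S100b is also a gene of chondrocytes. Of 7 pericyte markers Cspg4 was detected, 22 UMIs and 152 CPM against 25.7 CPM and 2 UMIs in the same groups (a ratio of 15.1 to the shallow cells, 3.71 to 132), with Rgs5, Kcnj8 and Abcc9 at 0. Adipocyte markers gave 41.6 CPM in sum with Adipoq and Plin1 at 0, and osteoclast markers 208 CPM, 21 of the UMIs being Ctsk, with Ocstamp, Atp6v0d2 and Calcr at 0. Scoring of doublets removed 1 of the 139 cells when the highest 0.8% per 1000 barcodes were left out.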

How the data were processed

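The authors deposited, per library, a matrix of UMI counts per gene and barcode made with Cell Ranger (per the file headers, software 3.1.0), and the submitters' processing notes also name Seurat 4.0.1 and mm10. The deposited counts were read for 31055 features, 31011 of which are in the reference annotation (GENCODE M21, GRCm38), from which coordinates were taken. Barcodes with at least 300 genes, at least 500 UMIs and at most 10% mitochondrial UMIs were kept. Counts were summed over the cells of a group and given as CPM. Ratios have exact conditional binomial 95% intervals, levels exact Poisson intervals and shares exact Clopper-Pearson intervals, and all of these cover counting error only. With 1 library per condition no p-value was computed. A gene at 0 was given the limit of 3 UMIs over its group. A gene outside the rule was tested where its higher group reached 50 CPM and called at a 2-fold difference.

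The cells and the 33 gene lists (428 of 429 symbols found) were chosen with earlier results of these data known. The rule for named genes took the 8 genes, the reporters, the 15 highest and 15 lowest ratios to the EGFP comparison cells with a proper symbol, the 2 highest and 2 lowest genes of each list at 10 CPM or more, and Sox9, Sox5, Sox6, Runx2, Sp7, Col10a1, Ihh, Prrx1, Col1a1, Ly6a and Mki67. Other genes, Aspn and 3110079O15Rik among them, were named after their values were seen, as were the shallow EGFP cells, the shallow immune barcodes, the thinning to 500 UMIs and the minimum of 200 CPM chosen. Contrasts within the uninjured library were not made, because it held 0 such cells. Scrublet (scanpy 1.11.5) marked 2 barcodes per library by its own threshold, so the highest 0.8% per 1000 barcodes (1996 and 159) were left out as an alternative only. TMM factors came from edgeR 4.0.16 in R 4.3.3. Tables were made in pandas 2.3.3 and scipy 1.17.1 (numpy 2.4.6, Python 3.11.15) and figures in matplotlib 3.10.9, and the ratio code was tested on simulated data. The deposited files name no other sample columns.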

Additional observations from a re-analysis of the deposited data

How the results depend on the processing

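The number of chondrocyte-like cells was 63 with at least 500 genes and 1000 UMIs, 85 with at least 10 UMIs of the 8 genes and 56 when the EGFP rule was also required. It was 96 to 138 under the other alternatives, and the uninjured count was 0 under every alternative run. The share passing the EGFP rule was 65.1% with at least 500 genes and 1000 UMIs, and 89.2% had at least 1 EGFP UMI. Higher and lower genes against the EGFP comparison cells numbered 1626 and 2209 at a minimum of 10 CPM, 209 and 146 at 200 CPM, and 1587 and 1614 after thinning to 2000 UMIs, which left 3 chondrocyte-like cells. They numbered 547 and 923 against the shallow EGFP cells, 818 and 865 after thinning to 500 UMIs, and 589 and 852 with TMM factors.

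Log2 ratios that changed sign against the shallow EGFP cells were those of Cilp (−2.28), Cxcl12 (−0.79), Sfrp1 (−0.67), Hes1 (0.19) and Mmp3 (0.78), and the medians of the WNT list (−0.18) and of the inflammatory and immediate early list (−0.32). After thinning to 2000 UMIs they were those of Fbln2 (0.27), Mmp3 (1.29) and Rbpj (0.34), and the medians of the skeletal progenitor (1.34), FGF (1.42) and Notch (5.30) lists, each resting on 3 cells. Mmp9 was 0.56 without the highest doublet scores and 0.38 without the cells rich in immune markers. The cause was not tested, apart from the fewer cells left by thinning to 2000 UMIs. An alternative limited to 5000 to 40000 UMIs was not run, because 0 chondrocyte-like cells lie in that range. Over 147 results, 2617 alternative values kept their direction within 1.5-fold, 474 moved further and 15 differences of at least 2-fold changed sign. The depth settings moved most: 42 kept and 89 moved against the shallow EGFP cells, and 60 kept and 78 moved after thinning to 500 UMIs, whereas leaving single genes out of the rule moved 0 to 10.

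With 144361 UMIs over the chondrocyte-like cells, a gene at 0 UMIs was given a limit of 20.8 CPM (3 UMIs). Lower levels were detected for some genes, such as Cdkn2a at 6.93 CPM on 1 UMI. A cell without a UMI is not shown to lack a gene. There is 1 library per condition, so no difference between uninjured and fractured periosteum has a replicate check. No paired analysis was possible because each group holds 1 library.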

Other observations

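The chondrocyte-like cells held several abundant transcripts that stand in none of the lists, chosen here after their values were seen. H19, an imprinted long non-coding RNA of embryonic tissue, had 219 UMIs in 93 of the 139 cells, 1517 CPM, against 8.52 CPM in the EGFP comparison cells and 243 CPM in the shallow ones (6.25-fold, 4.56 to 8.74). Peg3, an imprinted zinc finger gene, was 914 CPM in 72 cells against 4.27 and 20.2 CPM (45.2-fold above the shallow cells, 17.3 to 168). Mest, another imprinted gene of mesoderm, was 526 CPM against 1.91 and 136 CPM. Tnn, the matrix protein tenascin-W of bone and periosteum, was 637 CPM in 66 cells against 5.67 and 177 CPM. The gene listed as 1500015O10Rik was 1413 CPM in 91 cells against 0.533 and 217 CPM.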
